A study of Mus musculus with 4 samples.

Results

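The distal end of mouse chromosome 4 carried 222 of the 4638 Zac1 peaks listed for Neuro-2A cells, a mouse neuroblastoma cell line. These peaks are the rows of the deposited peak table on chromosome 4 whose midpoint lies at or beyond 140 Mb. The rule uses position and no read count, but the region was picked with earlier results of these data known. They made up 4.79% of the list and 44.7% of the 497 peaks of chromosome 4, and they ran from 140036734 to 155505598 on the mm9 build. The study compared Zac1 chromatin immunoprecipitation (ChIP, 2 libraries) with input chromatin (2 libraries) to map where Zac1 binds. Both groups came from Neuro-2A cells (Swiss Albino strain) that were transfected with the Zac1 expression plasmid pRK5-Zac1 and fixed 16 h later. The ChIP used an in-house antibody against Zac1, and the input had no antibody. All 4 libraries thus come from cells that carry extra Zac1, and neither untransfected cells nor a control antibody were analysed here.

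Zac1, also called Plagl1, is a zinc finger transcription factor made from an imprinted gene, which is expressed mainly from the paternal copy. It binds GC-rich DNA, it can restrain cell growth, and it belongs to a network of imprinted genes that are expressed together. The far end of mouse chromosome 4 matches the tip of the short arm of human chromosome 1, a segment often lost in human neuroblastoma. Chromosome 4 of the mouse holds Chd5 (a chromatin remodeller), Kif1b (a motor protein), Casz1 (a zinc finger factor of neural differentiation) and Trp73 (a relative of p53), whose human counterparts lie in that segment. The gene table used here belongs to another build than the peaks, so the peaks were not assigned to these or any other genes, and no sequence of the peaks was used.

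Each peak has 1 read count for ChIP and 1 for input, and no column names a replicate. Whether these counts come from both libraries of a group or from 1 is not stated, so the values carry no replicate error and no replicate check. All intervals are exact 95% intervals that cover counting error only. Fold means ChIP reads over input reads, the input being multiplied by a scaling of 0.6961. This scaling was inferred from the deposited fold values and is not itself given. Peaks are not replicates of each other, and the caller picked them for their excess of ChIP reads. Differences between sets of peaks were therefore not tested and are given as values with intervals. The whole list held 388156 ChIP and 20321 input reads on 20 chromosomes.

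ChIP enrichment at this end of the chromosome was close to that of the whole list. A high fold was given in advance, since peaks were called for their excess of ChIP reads. The 222 peaks held 19670 ChIP reads and 1090 input reads, a 25.9-fold excess (24.4 to 27.6), and the 4416 peaks elsewhere showed a 27.5-fold excess (27.1 to 27.9). The intervals overlapped. The neighbouring stretch of chromosome 4, from 130 to 140 Mb, had 240 peaks and a 26.7-fold excess (25.2 to 28.4). A fold of 20 or more was reached by 158 of the 222 peaks (71.2%), against a background of 74.4% of all peaks. The lower limit of the fold lay above 5 in 217 of them, where 97.6% of all peaks did so. For the count at a fold of 20, a peak without input reads was set against a floor of 3 input reads.

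Reads per peak were somewhat more numerous on both sides of the comparison. A peak at the distal end held a median of 84 ChIP reads (interquartile range 64 to 104, interval of the median 79 to 90), against a median of 75 (59 to 97, interval 74 to 76) for peaks elsewhere. The 130 to 140 Mb stretch lay between them, with a median of 77.5 ChIP reads (interval 73 to 83). Input reads averaged 4.91 per peak (4.62 to 5.21) at the distal end, against 4.35 (4.29 to 4.42) elsewhere, while the median was 4 in both. From 130 to 140 Mb the mean was 4.62 input reads per peak (4.35 to 4.90). That interval overlapped those of the distal end and of peaks elsewhere. The ChIP median and the input mean at the distal end thus both stood higher than elsewhere, but not clearly higher than in the adjacent stretch. The part of input in the ChIP counts was not tested. A total of 63 distal peaks had 100 or more ChIP reads (28.4%; 23.2% of all peaks), and 24 had 10 or more input reads (10.8%; 6.94% of all peaks). No input read was found at 10 of the 222 (5.22% of all peaks).

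**Figure D1:**
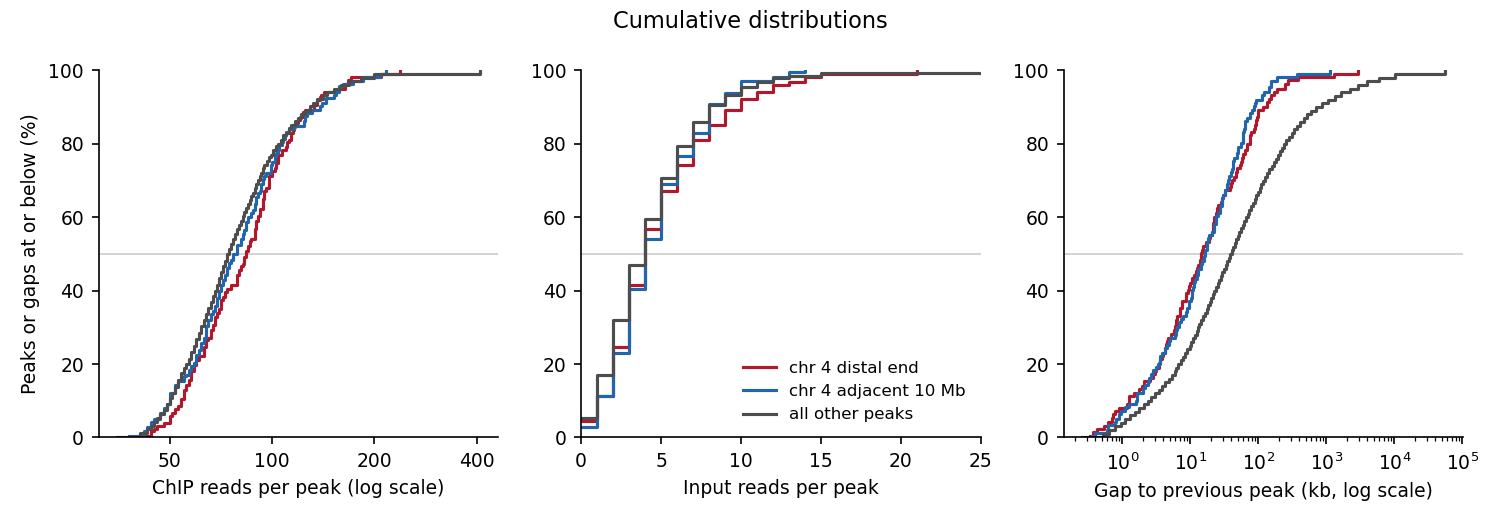
Cumulative share of peaks by ChIP reads (left, log axis) and input reads (middle, cut at 25 reads), and of gaps by the distance to the previous peak (right, kb, log axis), for the distal end of chromosome 4 (222 peaks), the adjacent 130 to 140 Mb (240 peaks) and all other peaks (4416). The grey line marks 50%, where the gap was 14.5 kb at the distal end, 16.2 kb in the adjacent stretch and 38.8 kb elsewhere.

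The peaks did not cover the distal end evenly. They fell into 4 stretches, separated by 3 gaps of more than 1 Mb without a listed peak. The first stretch, from 140036734 to 141600700, held 92 peaks in 1.56 Mb, or 58.8 per Mb. A gap of 2.94 Mb followed, then 3 peaks between 144539567 and 144823834, then a gap of 2.43 Mb. The third stretch, from 147252644 to 151999938, held 77 peaks (16.2 per Mb). After 1.30 Mb without a peak, the last stretch, from 153304821 to 155505598, held 50 peaks (22.7 per Mb). The first Mb alone had 82 of the 222 peaks (36.9%), and the next most populated, from 154 to 155 Mb, had 28.

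**Figure D2:**
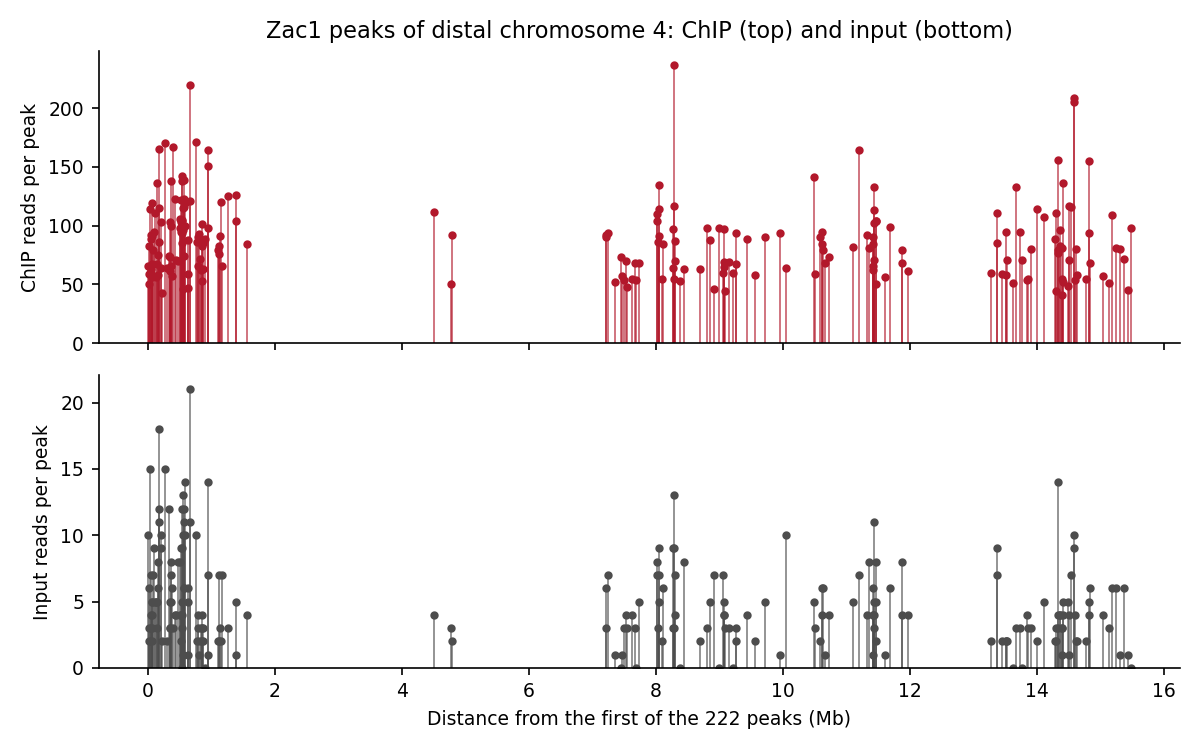
ChIP reads (top) and input reads (bottom) of each of the 222 peaks against its distance in Mb from the first of them, with 1 point per peak. The 92 peaks of the first stretch stand close together at the left, and input counts of 15 and more occur there alone.

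Input reads per peak differed along the chromosome and were highest in the first stretch, where peaks were densest. In the first stretch they averaged 5.96 per peak (5.47 to 6.48), against 4.17 (3.83 to 4.54) over the 130 peaks beyond 142 Mb. The fold was lower there, 22.9 (21.0 to 25.003) against 29.0 (26.6 to 31.7) beyond 142 Mb, and neither pair of intervals overlapped. The median of ChIP reads ran the other way, with 90.5 (interval 83 to 98) in the first stretch and 80 (71 to 86) beyond 142 Mb, with intervals that overlapped. A similar input level continued on the near side of the limit, with 5.58 input reads per peak (4.99 to 6.21) over the 59 peaks from 138 to 140 Mb. Of the 24 distal peaks with 10 or more input reads, 19 lay in the first stretch. The last stretch was denser than the third (22.7 against 16.2 peaks per Mb), but its input was not higher. It had 3.78 input reads per peak (3.26 to 4.36), against 4.47 (4.01 to 4.97) in the third, with overlapping intervals. Without the first Mb, the other 140 distal peaks had 4.13 input reads per peak (3.80 to 4.48) and a 29.6-fold excess (27.2 to 32.2). The higher input of the distal end thus came from that Mb. The median of these 140 peaks was 80.5 ChIP reads, with an interval (71 to 87) that included the median of 75 elsewhere.

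By 1 Mb windows, the first Mb had 6.24 input reads per peak (5.71 to 6.81) and a 21.8-fold excess (19.96 to 23.9). The 10 peaks of the second Mb had 3.6 input reads per peak (2.52 to 4.98) and a 38.1-fold excess (27.3 to 54.7). The window from 148 to 149 Mb, with 21 peaks, resembled the first Mb, at 5.71 input reads per peak (4.74 to 6.83) and a 22.9-fold excess (19.1 to 27.8). From 149 to 150 Mb, 14 peaks had 3.07 input reads per peak (2.22 to 4.14) and a 35.2-fold excess (26.0 to 49.0). The last 8 peaks, beyond 155 Mb, had 3.38 (2.22 to 4.91) and a 31.6-fold excess (21.5 to 48.3). The fold intervals of neighbouring windows overlapped, except between the first and the second Mb. Across the 222 peaks, ChIP and input reads had a Pearson r of 0.51 and a Spearman rho of 0.43, close to the 0.50 and 0.44 of the other 4416 peaks. Each peak contributes a ChIP and an input count from the same stretch of the genome and the peaks share their libraries, so this is a description.

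**Figure D3:**
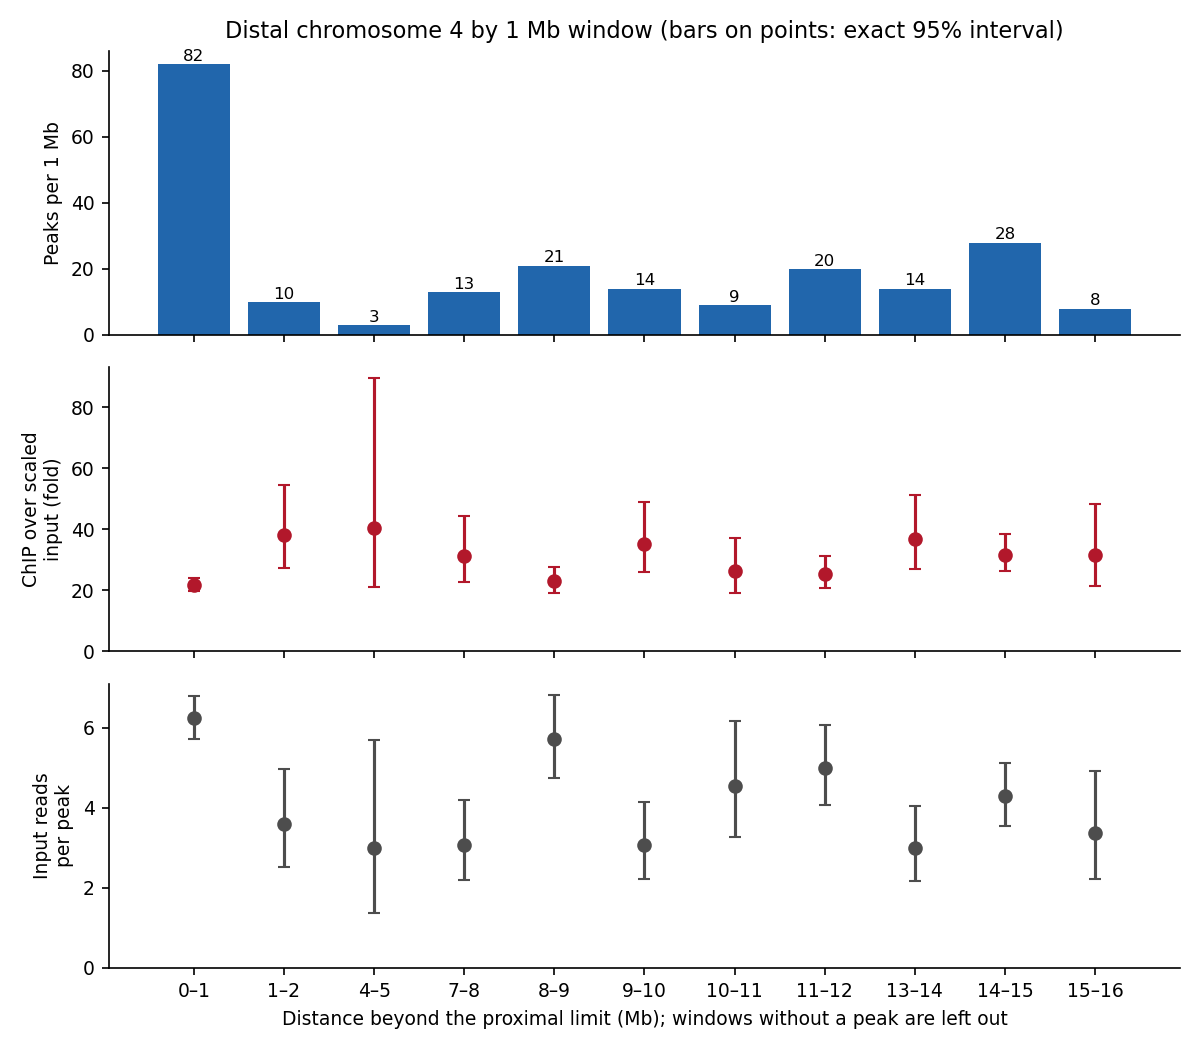
Number of peaks (top), ChIP over scaled input (middle) and input reads per peak (bottom) for each 1 Mb window beyond the limit of 140 Mb that held a peak; points carry exact 95% intervals of counting error. The first window has 82 peaks, 6.24 input reads per peak and a 21.8-fold excess.

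Distal peaks stood near each other more often than peaks elsewhere. The median gap between neighbouring midpoints was 14.5 kb (interval 10.6 to 21.5), against 38.8 kb (36.1 to 42.0) elsewhere and 16.2 kb (11.9 to 21.4) in the 130 to 140 Mb stretch. Another peak lay within 10 kb of 130 of the 222 peaks (58.6%), where 41.1% of all peaks had one. In the 130 to 140 Mb stretch the share was 59.2%, and the intervals of the distal end (51.8 to 65.1%) and of that stretch (52.7 to 65.4%) overlapped over most of their length. Among the 140 distal peaks past the first Mb, 47.1% (38.7 to 55.8) had such a neighbour and the median gap was 29.1 kb (21.7 to 48.0). These intervals included the 41.1% of all peaks and the 38.8 kb elsewhere. Without the largest run, known when the region was picked, the share was 55.1% (48.0 to 62.1) and the median gap 18.9 kb (13.4 to 23.5). A neighbour within 1 kb was found for 36 distal peaks (16.2%; 8.78% of all peaks). Spacing also differed within the distal end, with a median gap of 8.51 kb (5.85 to 12.0) in the first stretch and 30.6 kb (21.7 to 48.5) beyond 142 Mb.

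Joined at 10 kb, the 222 peaks made 37 runs of 2 or more peaks and 92 peaks that stood alone. Runs of 5 or more took in 57 peaks, or 25.7% (20.1 to 31.9), against 7.68% of all peaks. From 130 to 140 Mb the share was 9.17% (5.83 to 13.5). The 57 include the 17 peaks of the largest run, which was known when the region was picked. Among the other 205 distal peaks the share was 19.5% (14.3 to 25.6). Of the 57 peaks, 37 lay in the first stretch, where the share was 40.2% (30.1 to 51.0). Among the distal peaks outside the first stretch the share was 15.4% (9.66 to 22.8). That interval lay above the 7.68% of all peaks but overlapped the interval from 130 to 140 Mb. The 57 peaks formed 7 of the 56 such runs of the whole list. Along the chromosome they began with 8 peaks over 22.6 kb (140083745 to 140106328, 27.6-fold, 19.5 to 40.5). Next came 5 peaks over 23.1 kb (140171600 to 140194715, 20.9-fold, 14.1 to 32.1), and 7 peaks over 28.7 kb (140372592 to 140401247, 20.5-fold, 15.1 to 28.7). Then came the run of 17 peaks described further on. Outside the first stretch there were 7 peaks over 31.3 kb (148304996 to 148336337, 21.8-fold, 16.2 to 29.8). The next, from 151444731 to 151467021 had 8 peaks in 22.3 kb and a 27.3-fold excess (19.7 to 38.8). The most distal run had 5 peaks in 17.3 kb (154420680 to 154438023, 32.8-fold, 19.9 to 57.9). The intervals of these folds overlapped throughout, so the runs could not be ranked by enrichment.

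Peaks in runs held more reads than peaks that stood alone. The 130 distal peaks with a neighbour within 10 kb had a median of 89 ChIP reads (interval 83 to 95), against 73 (68 to 84) for the 92 that stood alone. These intervals just overlapped. Input averaged 5.52 reads per peak (5.12 to 5.93) in the first set and 4.05 (3.65 to 4.49) in the second. Of the 130 peaks, 68 lay in the first stretch, and the part of position in these differences was not tested. The fold was not higher in runs, at 24.4 (22.6 to 26.3) with a neighbour and 28.9 (26.1 to 32.2) alone. The same order held among peaks elsewhere, with medians of 81 and 72 ChIP reads and 4.79 and 4.06 input reads per peak. Of the 10 distal peaks without input reads, 9 stood alone, as did 152 of the 232 such peaks elsewhere (65.5%). Over all peaks, 41.4% of the distal peaks and 59.8% of those elsewhere stood alone. For none of the 221 neighbouring pairs did the window positions reported for 1 peak overlap those of the next, although 182 peaks had such a position outside their listed interval, by up to 454 bp.

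The largest run of the whole list, known when the region was picked, lay here, with 17 peaks over 61.4 kb (140554955 to 140616330). It had a median of 104 ChIP reads per peak (interval 95 to 122), against 82 (74 to 88) for the other 205 distal peaks. Its 6.88 input reads per peak (5.69 to 8.25) compared with 4.75 (4.45 to 5.05) for those 205. The fold was 22.1 (18.3 to 26.8) in the run and 26.4 (24.7 to 28.2) in the 205, with overlapping intervals. Gaps inside the run ranged from 592 bp to 9.56 kb, with a median of 3.25 kb.

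The first 4 peaks of the run had similar ChIP counts and input counts that differed more. The first, at 140554955 to 140555061, had 122 ChIP and 4 input reads, and the second, at 140557736 to 140557869, had 95 and 2. Its fold of 68.2 (18.4 to 571.6) was the highest of the run among peaks with input reads. The third lay between 140566514 and 140566555, with 103 ChIP reads and 9 input reads. Its neighbour between 140567112 and 140567141, with 104 and 12, had the lowest fold of the run, 12.5 (6.83 to 24.9). The intervals of this lowest and that highest fold overlapped. The 4 ChIP counts lay between 95 and 122 while input counts lay between 2 and 12.

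Near the middle, 105 ChIP reads and 4 input reads were counted between 140571625 and 140571725. The broad 613 bp peak at 140572625 to 140573237 had 138 and 5, and its neighbour at 140573536 to 140573658 had 85 and 3. The peak at 140577013 to 140577059 carried the best rank of the whole distal end, 21 in the authors' order, with 142 ChIP reads over 9 input reads (22.7-fold, 11.6 to 50.6). It was also the peak with most ChIP reads in the run. The next, at 140581076 to 140581129, had 94 ChIP reads and no input read (lower limit of the fold 35.9).

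Of the last 8 peaks of the run, 5 had 10 or more input reads. Counts of ChIP and input were 96 and 10 between 140586917 and 140586982, and 115 and 13 between 140589990 and 140590034. The weakest ChIP peak of the run, at 140596764 to 140596851, had 46 and 1. After a gap of 9.56 kb, the peak at 140606324 to 140606408 had 74 and 6, and the 551 bp peak at 140606801 to 140607351 had 123 and 6. The next peak, from 140608242 to 140608322, had 116 and 12, and the last, from 140616257 to 140616330, had 100 and 10. Between them lay the peak from 140609110 to 140609230, with 11 input reads and an 18.2-fold excess (9.84 to 37.2), which was the highest fold of these 3. In all, 11 of the 17 peaks had 100 or more ChIP reads and 8 had 9 or more input reads.

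**Figure D4:**
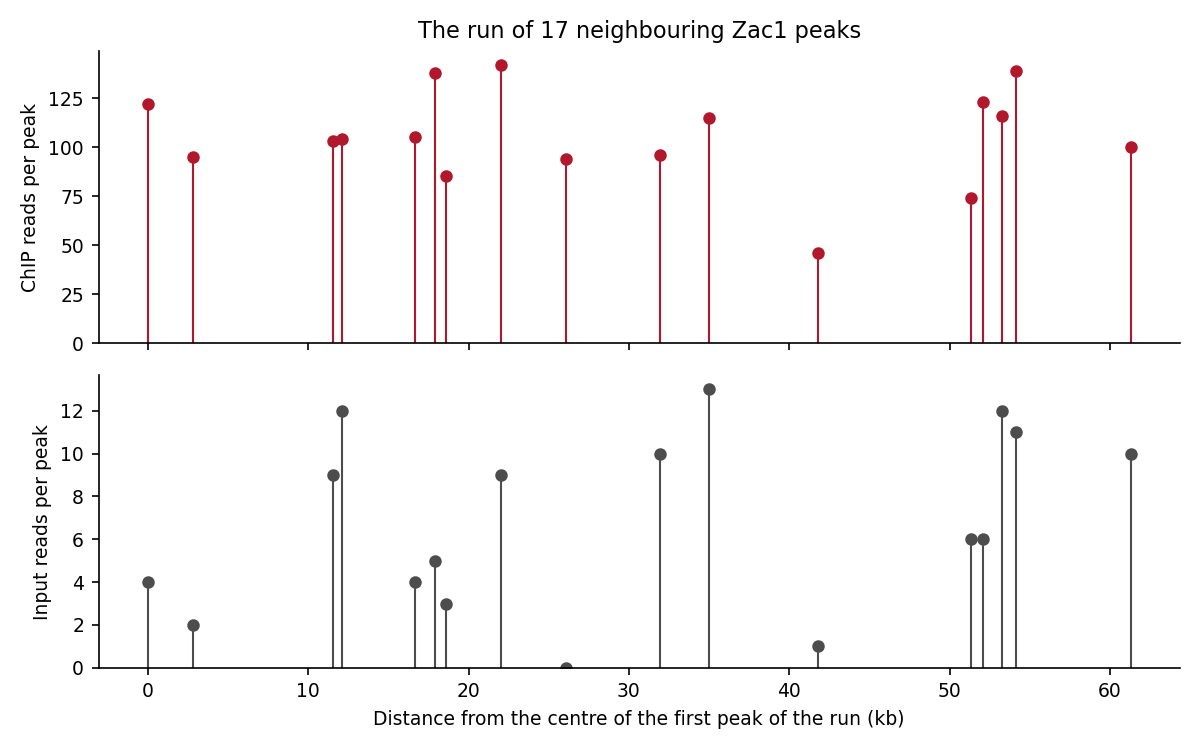
ChIP reads (top) and input reads (bottom) of the 17 peaks of the largest run, against the distance in kb from the centre of the first. ChIP counts lie between 46 and 142 and input counts between 0 and 13, with the 3 last peaks at 10 to 12 input reads.

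Of the 10 best ranked distal peaks, 6 lay in the first Mb and the other four beyond 149 Mb. In the authors' order, 4 distal peaks were among the 100 best and 46 had a rank of 1000 or better (20.7%; 21.4% of all peaks). Second to the peak with rank 21 came one at 151466437 to 151466487 (rank 51), with 113 ChIP reads over 4 input reads (40.6-fold, 15.4 to 151.5). The third, at 140428020 to 140428122, had 167 and 3 reads (80.0-fold, 26.9 to 391.7). The fourth was the most distal peak of the chromosome in the list, at 155505566 to 155505598, with 98 ChIP reads and no input read (lower limit of the fold 37.5). Among the other six of the 10 best, the peak at 140979993 to 140980061 had 151 ChIP reads and 1 input read, which is the highest fold among the 212 peaks with input reads, at 216.9 (38.3 to 8624). The one at 154564016 to 154564045 had 116 and 7. Those at 140841183 to 140841270, 140389295 to 140389326, 149022228 to 149022294 and 140909478 to 140909551 had 93 and 1, 103 and 3, 98 and 0, and 85 and 3 ChIP and input reads.

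The peaks with most ChIP reads were others. The highest ChIP count, 237 with 13 reads in the input (26.2-fold, 15.0 to 49.9), lay between 148315487 and 148315694, inside the run of 7 peaks there. Its rank in the authors' order was 2087. The next, at 140695371 to 140695406, had 220 ChIP and 21 input reads, the most input reads at the distal end (15.0-fold, 9.60 to 24.8). A close pair followed, 1501 bp apart: 209 and 9 reads at 154609582 to 154609750 and 205 and 10 at 154607851 to 154608479. The fifth, at 140800764 to 140800876, had 171 and 10. Other high folds rested on 1 input read, with 126 ChIP reads at 141428115 to 141428223 (181.0-fold, 31.9 to 7205) and 94 at 149989130 to 149989185 (135.0-fold, 23.7 to 5390).

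The lowest fold of the 222, 6.86 (4.10 to 12.1), was at 140205054 to 140205361, with 86 ChIP reads over 18 input reads. It belonged to a run of 3 peaks over 13.4 kb with 13.7 input reads per peak (9.81 to 18.5), and it was the one distal peak with a false discovery rate above 0 in the authors' deposited table, 2e-06. The next lowest were 8.86 (4.78 to 17.9) at 140372592 to 140372621, with 74 and 12 reads, and 9.19 (4.69 to 20.1) at 150082030 to 150082182, with 64 and 10. The third most input reads, 15, were shared by 2 peaks, with 114 ChIP reads between 140069956 and 140070044 and 170 between 140311975 and 140312053. The interval of the fold lay wholly below the 27.4-fold of the whole list for 12 distal peaks (5.41%; 4.44% of all peaks), of which 9 were in the first stretch. It lay wholly above for 7 (3.15%; 2.54% of all peaks). At the depth of single peaks, the remaining 203 could not be told from that value.

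At the limit of 140 Mb, the first 2 peaks inside were those from 140036734 to 140036820 (66 ChIP reads over 10 input reads) and from 140051796 to 140051866 (59 over 6). The last 2 peaks outside were those from 139962477 to 139962570 (83 over 13) and from 139986369 to 139986461 (73 over 2). No run of peaks crossed the limit.

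Both DNA strands were covered alike. The forward strand carried 49.9% of ChIP reads (49.2 to 50.6) and 50.4% of input reads (47.4 to 53.4) at the distal end, against 50.1% (49.9 to 50.2) and 50.2% (49.5 to 51.0) elsewhere. Single peaks ranged from 38.3% to 63.5% forward ChIP reads. The interval excluded 50% at 2 of the 222 (1.72% of all peaks). These were the peak at 140909802 to 140909915, with 40 forward and 23 reverse ChIP reads (63.5%, 50.4 to 75.3), and the one at 147253663 to 147254084, with 56 and 36 (60.9%, 50.1 to 70.9). The forward share of 61.7% at 153304821 to 153304902 and the lowest shares, 38.3% at 149252674 to 149252724, 39.3% at 151452426 to 151452493 and 40.6% at 140244369 to 140244486, had intervals that included 50%.

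The weaker strand had exactly 16 reads in its busiest window at 37 distal peaks (16.7%; 22.1% of all peaks), which is the smallest value in the list. A count of 20 or more in that window was found at 92 distal peaks (41.4%, against 36.9% of all peaks). In the 130 to 140 Mb stretch these shares were 20.4% and 37.1%. The intervals of the distal end were 12.0 to 22.2% for the value of 16 and 34.9 to 48.2% for at least 20.

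In this table the start and end of a peak mostly mark the summits of forward and reverse reads. The deposited length equalled the distance between the summits at 172 distal peaks (77.5%; 77.4% of all peaks), and the median distance was 67.5 bp, against 68 bp elsewhere. The summits were inverted or fell on the same base at 27 distal peaks (12.2%; 12.3% of all peaks). Those 27 were longer, at 384 bp in the median, than the other 195, at 77 bp. All 172 peaks whose length equalled the summit distance were among the 195, because the 27 have no positive summit distance. The ends of the 27 were thus set otherwise, so the lengths do not compare like with like. The 27 held a median of 92 ChIP reads (interval 71 to 106), against 83 (77 to 89) in the other 195. A length of 200 bp or more was found for 29 (13.1%; 15.4% of all peaks). The longest were the 629 bp peak at 154607851 to 154608479 and the 613 bp peak of the largest run, both named before. The third, of 554 bp at 140213442 to 140213995, had 115 ChIP reads over 11 input reads.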

How the data were processed

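The series was analysed from 1 peak table made by the authors. Per the file headers its columns are those of the peak caller CisGenome, and the submitters' processing notes name mm9. The aligner, filters and detection thresholds, and how replicates were combined, are not given here. Per the labels' protocols, libraries were made from 10 ng of DNA, sized at 200 bp with adapters and amplified by 18 PCR cycles, and the counts do not separate PCR copies from independent molecules.

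Per the file headers, the deposited values are read counts per peak for ChIP and input, in all and by strand. Strand counts summed to the total in 4638 of 4638 peaks. The deposited fold is a log2 value. With 1 added to both counts, whole-number window counts matched it, to within 0.0001, in 100.0% of peaks when input was multiplied by 0.6961 and in 84.1% without scaling. The deposited false discovery rate is a p-value-like quantity, the authors' rank a score that orders peaks, and the deposited strand balance a fraction. The last was not reported here. Ranks run to 4688, of which 50 were not analysed here.

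Folds carry exact conditional binomial (Clopper-Pearson) intervals, shares exact binomial ones, reads per peak exact Poisson ones and medians intervals from order statistics, all at 95%. Interval and scaling code was tested on simulated data. Peaks were joined into runs where midpoints lay at most 10 kb apart. Named were the 10 best ranked peaks, those with most ChIP or input reads, the highest and lowest folds and forward shares, the longest, those at the limit and the largest run. The region, these lists and thresholds were chosen with earlier results of these data known. Python 3.11.15, pandas 2.3.3, numpy 2.4.6, scipy 1.17.1 and matplotlib 3.10.9 were used.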

Additional observations from a re-analysis of the deposited data

How the results depend on the processing

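Of 61 values under 12 alternatives, 28 stayed within the interval of the reported value (for the largest run, within 1.5 times) and 33 moved. The 2319 best ranked peaks of the list kept 110 distal peaks. It gave a fold of 35.0 (36.1 for the remaining peaks), 4.09 input reads per peak, a median of 92.5 ChIP reads, a median gap of 32863 bp, 40.9% with a neighbour within 10 kb, a largest run of 6 and 89.1% with a fold of 20 or more. Requiring a busiest-window count of 20 or more from the forward and the reverse strand alike kept 92 peaks. These had 5.46 input reads per peak and a median of 97.5 ChIP reads. Their median gap was 37713 bp, 44.6% had a neighbour and the largest run was 8. The remaining peaks then had a fold of 29.1. Both filters thin out the list, so gaps widen and neighbours are lost by construction. Spacing under these filters is not given for the remaining peaks, so the filtered spacing cannot be set beside unfiltered values. A limit 1 Mb farther out kept 140 peaks, with a fold of 29.6, 4.13 input reads per peak, a gap of 29143 bp, 47.1% with a neighbour, a largest run of 8 and 79.3% with a fold of 20 or more. The higher input at the distal end thus depends on its first Mb. The smaller gap and the larger share with a neighbour were clear only with that Mb included. A limit 1 Mb closer in moved none of the 9 values. Without the largest run the next held 8 peaks, and the other 8 values stayed. Unscaled input gave folds of 18.0 for the distal end and 19.2 for the remaining peaks, with 50.5% at 20 or more. The busiest windows gave 20.3 and 21.2, with 52.7%. Merging within 1 kb gave 5.34 input reads per peak. A neighbour was found for 45.5% within 5 kb and 72.5% within 20 kb, and the largest run was 7 at 5 kb. A fold of 10 was reached by 97.7% and of 40 by 28.8%. Where no construction of the alternative gives it, the cause was not tested. No paired analysis was possible because no column of deposited values names a replicate, and no replicate could be left out for the same reason. Single peaks with few input reads have wide intervals, which limits any ranking by fold.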

Other observations

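Close pairs of peaks were not always alike. Of the 18 distal pairs within 1 kb, the closest had midpoints 330 bp apart, with 59 ChIP reads over 6 input reads from 140051796 to 140051866 and 83 over 2 from 140051992 to 140052330. At 140979289 to 140979698 and at 140979993 to 140980061, 534 bp apart, the counts were 98 and 7 in the first and 151 and 1 in the second. At 154437130 to 154437251 and at 154437936 to 154438023, 789 bp apart, ChIP counts were 52 and 136 while input counts were 4 and 5. By contrast, the pair at 140566514 to 140566555 and at 140567112 to 140567141 had 103 and 104 ChIP reads. These pairs were chosen after their values were seen.

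In the largest run there were 6.88 input reads per peak (5.69 to 8.25). The pair at 140695371 to 140704192 had 341 ChIP and 32 input reads, or 16.0 input reads per peak (10.9 to 22.6), and the pair at 154607851 to 154609750 had 414 and 19, or 9.50 per peak (5.72 to 14.8). The interval of the second pair overlapped that of the largest run, and that of the first did not. The first pair had a 15.3-fold excess (10.6 to 22.7) and the second a 31.3-fold excess (19.8 to 52.5).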
